A study of Mus musculus with 12 samples.

Results

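The expression of 10 genes of natural killer (NK) cells and cytotoxic lymphocytes was followed by bulk RNA sequencing across 12 whole lungs of neonatal mice. These are the granule proteins *Gzma*, *Gzmb*, *Prf1* and *Nkg7*, the receptors *Ncr1*, *Klrb1c* and *Klrk1*, the cytokine receptor chain *Il2rb*, the transcription factor *Eomes* and the cytokine *Ifng*. The 10 genes were chosen by symbol from the 52550 genes of the count table, of which 21950 are protein-coding and 15885 passed the filter on low counts. Of the 10, 9 passed it, and *Ifng* did not.

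The study compared the response to lipopolysaccharide (LPS), a bacterial endotoxin, between WT (*Adm*+/+) mice and *Adm*+/- mice, which are haplodeficient for adrenomedullin, a peptide hormone that promotes vessel growth. All mice were C57Bl/6J by label, and the *Adm*+/- line had been backcrossed to that strain from a 129/SvEv background. There were 4 groups of 3 lungs. Libraries 3 to 5 came from WT PBS, 6 to 8 from *Adm*+/- PBS, 9 to 11 from WT LPS, and 1, 2 and 12 from *Adm*+/- LPS, and these numbers name the replicates. From postnatal day 3, mice received 3 daily intraperitoneal injections of 6 mg/kg *Escherichia coli* O55:B5 LPS or of the same volume of phosphate-buffered saline (PBS), and lungs were taken on postnatal day 5, 6 h after the last one. The deletion was present in every cell of the *Adm*+/- mice, no cells were sorted, and the labels give neither sex nor litter.

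NK cells and cytotoxic T lymphocytes kill target cells by releasing granules. Perforin, the product of *Prf1*, opens the target membrane, and granzymes, the serine proteases encoded by *Gzma* and *Gzmb*, enter and start cell death. NK cells read their targets through activating receptors such as NKp46 (*Ncr1*) and NKG2D (*Klrk1*), depend on interleukin 15 through the receptor chain shared with interleukin 2 (*Il2rb*), and make interferon gamma (*Ifng*) when stimulated. Resting mouse NK cells hold granzyme A protein but little granzyme B and perforin protein, which rise when the cells are activated.

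The 3 killing-granule genes *Gzmb*, *Gzma* and *Prf1* rose with LPS in both genotypes, by 13.9-fold, 2.93-fold and 2.25-fold in WT lungs and by 35.2-fold, 3.7-fold and 2.09-fold in *Adm*+/- lungs. The NK receptor *Ncr1*, the granule membrane protein *Nkg7* and *Eomes* passed the test in neither genotype. By edgeR *Il2rb* and *Klrb1c* passed it in *Adm*+/- lungs and not in WT, while DESeq2 called *Il2rb* in both genotypes (0.64 in WT, adjusted p = 0.0261) and did not call *Klrb1c* (adjusted p = 0.0514 in *Adm*+/-). For none of the 9 genes tested did the difference between the genotypes pass by edgeR. In these whole lungs, more cells of a type and more RNA per cell cannot be told apart. Levels throughout were low, at 0 to 6.54 CPM (counts per 1000000 counted reads, with library sizes scaled by the TMM method) in any library.

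Beside these changes stand several properties of the libraries. Total counts ranged from 22382535 to 38062873, with a median of 28494877. WT PBS replicate 5 and *Adm*+/- PBS replicate 6 stood apart, with 16.6% and 13.3% of counts on the noncoding gene *Gm26917* against 5.42% to 7.4% elsewhere. A list of 8 skeletal muscle genes summed to 577 to 1720 CPM in the WT LPS libraries and to at most 32.8 CPM in any other, and a list of squamous epithelium genes summed to 2710, 22.9 and 1420 CPM in WT LPS replicates 9, 10 and 11 and to at most 37.4 CPM elsewhere. Lung epithelial and endothelial genes summed to 14400 to 18400 CPM in every library. *Adm* itself was at 3.96, 7.09 and 4.57 CPM in WT PBS, 7.77, 8.15 and 4.46 in WT LPS, 4.58, 2.87 and 3.62 in *Adm*+/- PBS and 3.74, 6.28 and 3.92 in *Adm*+/- LPS. Its log2 difference between *Adm*+/- and WT was -0.5 ± 0.32 (SE) in PBS and -0.55 ± 0.31 in LPS, neither past the test (adjusted p = 0.999 and 0.48 by edgeR's quasi-likelihood test), so the targeted gene overlapped between the genotypes.

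The promoter windows of the 3 genes that rose in both genotypes, and of *Ncr1*, the most NK-restricted gene of the 10, are shown from RefSeq (GRCm38.p6), from 250 bases before to 50 bases after each annotated start, 5′ to 3′ on the gene's strand. The windows are chr13:113100932-113101231 on the minus strand for *Gzma*, chr14:56262285-56262584 on the minus strand for *Gzmb*, chr10:61297586-61297885 on the plus strand for *Prf1* and chr7:4337465-4337764 on the plus strand for *Ncr1*. Capitals mark matches on either strand to 4 motifs: T-box (TCACAC, which *Eomes* and *Tbx21* can bind), STAT (TTCNNNGAA), AP-1 (TGANTCA) and RUNX (TGTGGT).
Gzma: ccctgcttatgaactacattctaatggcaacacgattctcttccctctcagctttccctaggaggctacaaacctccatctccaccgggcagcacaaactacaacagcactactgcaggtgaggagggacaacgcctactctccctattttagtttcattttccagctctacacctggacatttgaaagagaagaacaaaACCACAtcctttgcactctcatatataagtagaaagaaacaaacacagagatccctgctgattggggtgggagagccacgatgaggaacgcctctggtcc
Gzmb: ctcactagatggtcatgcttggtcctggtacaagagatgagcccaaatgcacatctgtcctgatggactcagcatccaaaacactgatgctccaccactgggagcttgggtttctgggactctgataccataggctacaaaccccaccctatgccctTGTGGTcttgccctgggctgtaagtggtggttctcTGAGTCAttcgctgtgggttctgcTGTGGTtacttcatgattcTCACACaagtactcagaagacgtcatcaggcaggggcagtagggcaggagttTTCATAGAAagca
Prf1: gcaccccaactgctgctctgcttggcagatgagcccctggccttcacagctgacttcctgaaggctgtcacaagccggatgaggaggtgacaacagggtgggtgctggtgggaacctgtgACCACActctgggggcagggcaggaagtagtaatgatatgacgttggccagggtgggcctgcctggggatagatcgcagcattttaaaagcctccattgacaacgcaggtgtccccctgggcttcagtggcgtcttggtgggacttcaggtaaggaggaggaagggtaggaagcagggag
Ncr1: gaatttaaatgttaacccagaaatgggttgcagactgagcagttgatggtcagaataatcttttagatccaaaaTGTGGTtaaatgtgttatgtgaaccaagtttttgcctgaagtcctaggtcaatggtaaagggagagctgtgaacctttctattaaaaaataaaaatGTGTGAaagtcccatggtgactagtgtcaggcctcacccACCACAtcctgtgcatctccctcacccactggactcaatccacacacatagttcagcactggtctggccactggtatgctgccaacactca

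The *Gzmb* window held all 4 motifs, with RUNX matches whose first letter lies at -93 and -34, AP-1 at -58, T-box at -15 and STAT at 37, counted from 0 at the annotated start. *Gzma* and *Prf1* each held 1 RUNX match, at -50 and -130, and no match to the other 3. *Ncr1* held RUNX matches at -176 and -41 and a T-box match at -80. Of the 9 genes with a promoter entry, T-box was found in 3 (*Ncr1*, *Gzmb* and *Nkg7*), STAT in 3 (*Gzmb*, *Nkg7* and *Ifng*), AP-1 in 2 (*Klrk1* and *Gzmb*) and RUNX in 7. Among all 32851 promoter entries of the same length, T-box was in 14.5%, STAT in 8.3%, AP-1 in 7.81% and RUNX in 16.8%. The RefSeq start used for *Gzmb* lies upstream of its Gencode boundary. These are letter matches and were not tested as binding sites.

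The positions of the genes are given on mm10 from Gencode release M21. *Gzma* (ENSMUSG00000023132) lies at chr13:113093825-113100981 on the minus strand, *Gzmb* (ENSMUSG00000015437) at chr14:56258838-56262260 on the minus strand and *Prf1* (ENSMUSG00000037202) at chr10:61297833-61304680 on the plus strand. *Nkg7* (ENSMUSG00000004612) and *Ncr1* (ENSMUSG00000062524) lie on the plus strand of chromosome 7, at chr7:43437073-43438249 and chr7:4337724-4345164. *Klrb1c* (ENSMUSG00000030325) and *Klrk1* (ENSMUSG00000030149) lie on the minus strand in the NK receptor gene cluster of chromosome 6, at chr6:128778485-128789215 and chr6:129610323-129623864. *Il2rb* (ENSMUSG00000068227) lies at chr15:78479256-78495271 on the minus strand, *Eomes* (ENSMUSG00000032446) at chr9:118478212-118486132 on the plus strand and *Ifng* (ENSMUSG00000055170) at chr10:118441046-118445892 on the plus strand. For 7 of the 10, no 50-base stretch of any transcript recurs in another gene's transcripts. The counts of *Klrb1c* are less certain, since 17% of its 50-base stretches recur in *Gm44511*, *Klrb1a*, *Klrb1b* or *Klrb1-ps1*, and so are those of *Ifng*, with 19.9% shared with *Gm49751* on the same strand. For *Eomes* the shared part was 0.386%, and *Gm33460* overlaps it on the opposite strand.

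**Figure D1:**
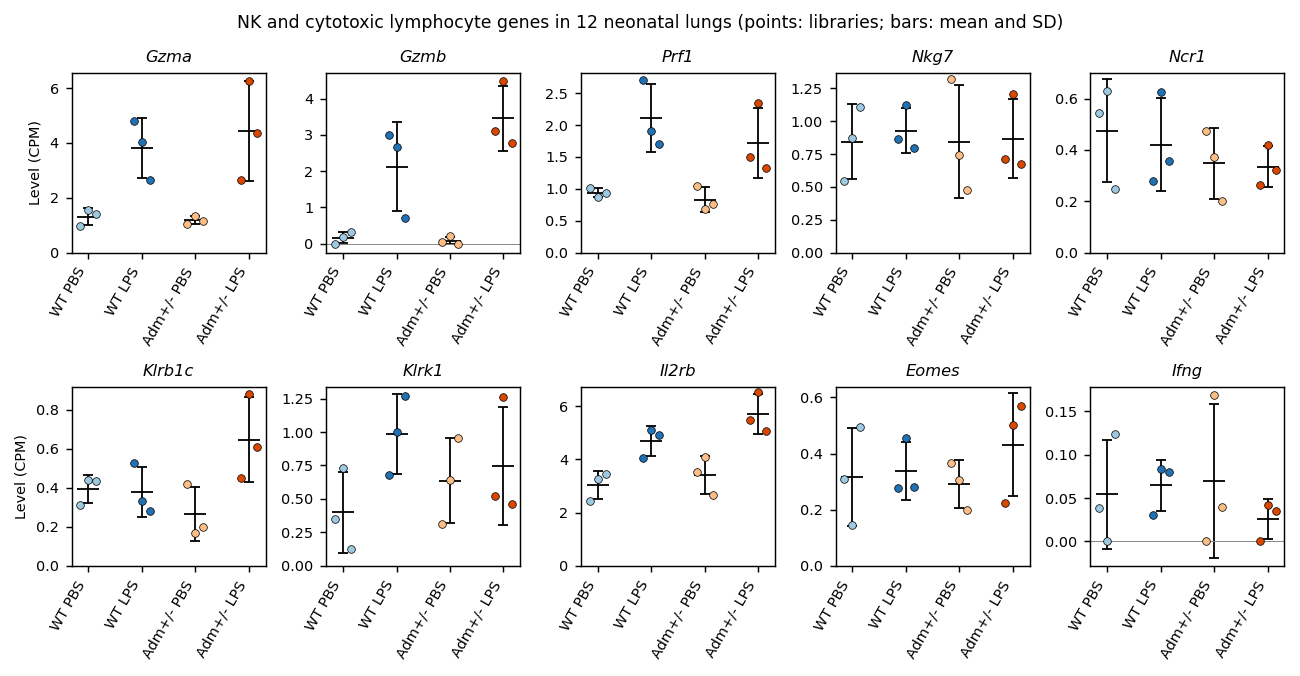
Level of each of the 10 genes in CPM (vertical axis, each panel with its own scale) in WT PBS, WT LPS, Adm+/- PBS and Adm+/- LPS lungs; points are the 3 libraries of a group and bars the mean and SD. Gzma, Gzmb and Prf1 lie higher in all LPS libraries than in all PBS libraries of the same genotype, while Ncr1, Nkg7 and Eomes overlap between LPS and PBS in both.

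*Gzmb* moved most. Granzyme B is the protease that cleaves caspases in the target cell. It stood at 0, 0.194 and 0.309 CPM in WT PBS libraries and at 2.99, 2.66 and 0.717 in WT LPS libraries. In *Adm*+/- lungs it stood at 0.0526, 0.203 and 0 CPM in PBS and at 3.1, 4.48 and 2.78 in LPS. Every LPS library was above every PBS library, and WT LPS replicate 11 was the lowest of the LPS libraries. The log2 fold change was 3.8 ± 0.82 (SE, n = 3 against 3, adjusted p = 0.00832) in WT and 5.14 ± 0.84 (adjusted p = 0.000989) in *Adm*+/- by edgeR's quasi-likelihood test. These folds rest on few reads in PBS: 9 over the WT PBS libraries and 7 over the *Adm*+/- PBS libraries, against 179 and 268 in LPS. Without WT PBS replicate 3 the WT log2 fold change was 3.09 and without WT PBS replicate 5 it was 4.52, and without *Adm*+/- PBS replicate 7 that of *Adm*+/- was 6.95, all still past the test. The ratio of the summed levels was 15.2 in WT, with an exact 95% interval from counting error alone of 7.85 to 33.9, and 35.9 in *Adm*+/-, with an interval of 17.2 to 90.1.

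*Gzma* encodes granzyme A, a trypsin-like protease that resting NK cells already hold. Its levels were 0.971, 1.55 and 1.42 CPM in WT PBS and 4.81, 4.03 and 2.63 CPM in WT LPS. In *Adm*+/- lungs they were 1.05, 1.35 and 1.15 CPM in PBS and 2.66, 6.28 and 4.35 CPM in LPS. The groups did not overlap in either genotype. The log2 fold change was 1.55 ± 0.34 (SE, adjusted p = 0.00915, edgeR) in WT and 1.89 ± 0.34 (adjusted p = 0.0018, edgeR) in *Adm*+/-.

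*Prf1*, the pore-forming perforin, stood at 1.01, 0.874 and 0.927 CPM in WT PBS and at 2.71, 1.91 and 1.71 CPM in WT LPS. In *Adm*+/- lungs it was at 1.05, 0.676 and 0.755 CPM in PBS and at 1.5, 2.35 and 1.32 CPM in LPS. All LPS libraries were above all PBS libraries. It rose by a log2 fold change of 1.17 ± 0.3 in WT (SE, adjusted p = 0.0179, edgeR) and of 1.06 ± 0.3 in *Adm*+/- (adjusted p = 0.0199, edgeR). The WT call was lost without WT PBS replicate 4 (1.12, adjusted p = 0.0519) and without WT LPS replicate 9 (0.94, adjusted p = 0.0922), and the *Adm*+/- call without *Adm*+/- PBS replicate 7 (0.93, adjusted p = 0.0792), *Adm*+/- PBS replicate 8 (1.01, adjusted p = 0.069) or *Adm*+/- LPS replicate 2 (0.78, adjusted p = 0.0948), all by edgeR. *Gzma* and *Gzmb* passed the test in all 12 fits that left out 1 library, with log2 fold changes of 1.34 to 1.76 and 3.09 to 4.52 in WT and of 1.55 to 2.15 and 4.57 to 6.95 in *Adm*+/-.

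*Nkg7*, a membrane protein of cytotoxic granules, did not follow these 3. It ranged from 0.544 to 1.11 CPM in WT PBS and from 0.796 to 1.12 in WT LPS, and from 0.477 to 1.32 in *Adm*+/- PBS and from 0.677 to 1.21 in *Adm*+/- LPS. The log2 fold change was 0.16 with a 95% interval of -0.73 to 1.06 in WT (adjusted p = 0.8, edgeR) and 0.06 with an interval of -0.83 to 0.95 in *Adm*+/- (adjusted p = 0.929, edgeR). The intervals leave room for changes of nearly the size seen for *Prf1*.

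Among the receptors, *Ncr1* gives NKp46, which marks NK cells and some innate lymphoid cells. It was counted with 4 to 15 reads per library. Its levels were 0.544, 0.631 and 0.247 CPM in WT PBS, 0.277, 0.624 and 0.358 in WT LPS, 0.473, 0.372 and 0.199 in *Adm*+/- PBS and 0.262, 0.419 and 0.321 in *Adm*+/- LPS. The groups overlapped, and the log2 fold change with LPS was -0.23 (95% interval -1.22 to 0.75, adjusted p = 0.735, edgeR) in WT and -0.04 (interval -1.09 to 1, adjusted p = 0.956, edgeR) in *Adm*+/-. A log2 change of -1 lay within both intervals.

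*Klrb1c* encodes NK1.1, the receptor by which NK cells of C57BL/6 mice are stained. In WT lungs it overlapped, at 0.311, 0.437 and 0.432 CPM in PBS and 0.524, 0.333 and 0.279 in LPS (log2 fold change -0.01 ± 0.45 SE, adjusted p = 0.988, edgeR). In *Adm*+/- lungs it stood at 0.421, 0.169 and 0.199 CPM in PBS and at 0.449, 0.88 and 0.606 in LPS, without overlap, and it rose by a log2 fold change of 1.34 ± 0.44 (adjusted p = 0.0369, edgeR). The counts behind this were 18 reads over the 3 *Adm*+/- PBS libraries and 50 over the 3 *Adm*+/- LPS libraries. The call was lost with DESeq2 (1.36, adjusted p = 0.0514), with no filter on low counts (1.32, adjusted p = 0.0516) and without any 1 of 5 libraries: *Adm*+/- LPS replicate 2 (1.05, adjusted p = 0.146), *Adm*+/- LPS replicate 12 (1.37, adjusted p = 0.0824), *Adm*+/- PBS replicate 7 (1.08, adjusted p = 0.14), *Adm*+/- PBS replicate 8 (1.18, adjusted p = 0.123) and WT PBS replicate 4 (1.33, adjusted p = 0.0513), all by edgeR. The difference between the genotypes was 1.35, with a 95% interval of -0.01 to 2.71 (unadjusted p = 0.0518, adjusted p = 0.644 by edgeR).

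*Klrk1*, which encodes NKG2D, the receptor for stress-induced ligands, was uneven between libraries of a group. WT PBS libraries held 0.349, 0.728 and 0.124 CPM and WT LPS libraries 0.678, 0.998 and 1.27. *Adm*+/- PBS libraries held 0.316, 0.642 and 0.954 CPM and *Adm*+/- LPS libraries 0.524, 1.26 and 0.463. The groups overlapped in both genotypes, with log2 fold changes of 1.24 ± 0.58 (SE, adjusted p = 0.148, edgeR) in WT and 0.18 ± 0.55 (adjusted p = 0.835, edgeR) in *Adm*+/-. The WT value was 0.88 without WT PBS replicate 5 and 1.92 without WT PBS replicate 4, and no fit without 1 library called it.

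*Il2rb*, the beta chain of the interleukin 2 and interleukin 15 receptors, had the smallest errors of the 9 genes tested. It was at 2.45, 3.25 and 3.46 CPM in WT PBS, 4.07, 5.11 and 4.94 in WT LPS, 3.52, 4.09 and 2.66 in *Adm*+/- PBS and 5.5, 6.54 and 5.06 in *Adm*+/- LPS. All LPS libraries were above all PBS libraries in both genotypes, and even the highest PBS value, 4.09 CPM, exceeded only WT LPS replicate 9. The log2 fold change was 0.73 ± 0.21 in *Adm*+/- (SE, adjusted p = 0.0202, edgeR). In WT it was 0.63 ± 0.21, which missed the threshold (adjusted p = 0.0528, edgeR) and passed it with DESeq2 (0.64, adjusted p = 0.0261). The *Adm*+/- call was lost without *Adm*+/- PBS replicate 6 (0.74, adjusted p = 0.0511), *Adm*+/- PBS replicate 8 (0.58, adjusted p = 0.0819) or *Adm*+/- LPS replicate 2 (0.62, adjusted p = 0.0775), all by edgeR.

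*Eomes*, a T-box factor needed for NK cell maturation, was counted with 3 to 16 reads per library and overlapped between LPS and PBS. Its means were 0.317 ± 0.174 CPM (SD, n = 3) in WT PBS, 0.338 ± 0.104 in WT LPS, 0.29 ± 0.0856 in *Adm*+/- PBS and 0.432 ± 0.183 in *Adm*+/- LPS. The log2 fold changes were 0.12 ± 0.51 (SE, adjusted p = 0.889, edgeR) in WT and 0.58 ± 0.49 (adjusted p = 0.394, edgeR) in *Adm*+/-.

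*Ifng* was at the limit of detection 6 h after the last dose. The 12 libraries held 0 to 5 reads each, in all 3 in WT PBS, 5 in WT LPS, 6 in *Adm*+/- PBS and 2 in *Adm*+/- LPS. A count of 0 allows up to 0.112 to 0.158 CPM in the 3 libraries at 0. A change of *Ifng* was not detectable at this depth, and tested without the filter its log2 value was 0.32 in WT (adjusted p = 0.89, edgeR) and -1.46 in *Adm*+/- (adjusted p = 0.42, edgeR).

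Counted over the 9 genes tested, 3 were called higher with LPS in WT (adjusted p below 0.05 and absolute log2 fold change above 0.5) and 0 lower, where 17.6% of all 15885 genes were called in either direction and 10.5% were called higher. In *Adm*+/-, 5 were called higher and 0 lower, where 25% of all genes were called in either direction and 12.8% higher. The median log2 fold change of the 9 was 0.63 in WT and 0.73 in *Adm*+/-, beside medians of 0.00909 and -0.0131 over all genes tested. An unadjusted p under 0.05 was found for 4 of the 9 in WT, against 36.7% of all genes, and for 5 of the 9 in *Adm*+/-, against 41.8%. In WT, 4 of the 9 had all LPS libraries above all PBS libraries, against 18.3% of all genes, and in *Adm*+/- 5 of the 9, against 26.6%. All these counts include *Gzmb*, which had 0 to 6 reads in PBS libraries and 18 to 107 in LPS libraries. It passed the filter on low counts through its LPS libraries alone, and a gene that enters this way can hardly come out lower. With no filter it was also called higher in both genotypes.

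**Figure D2:**
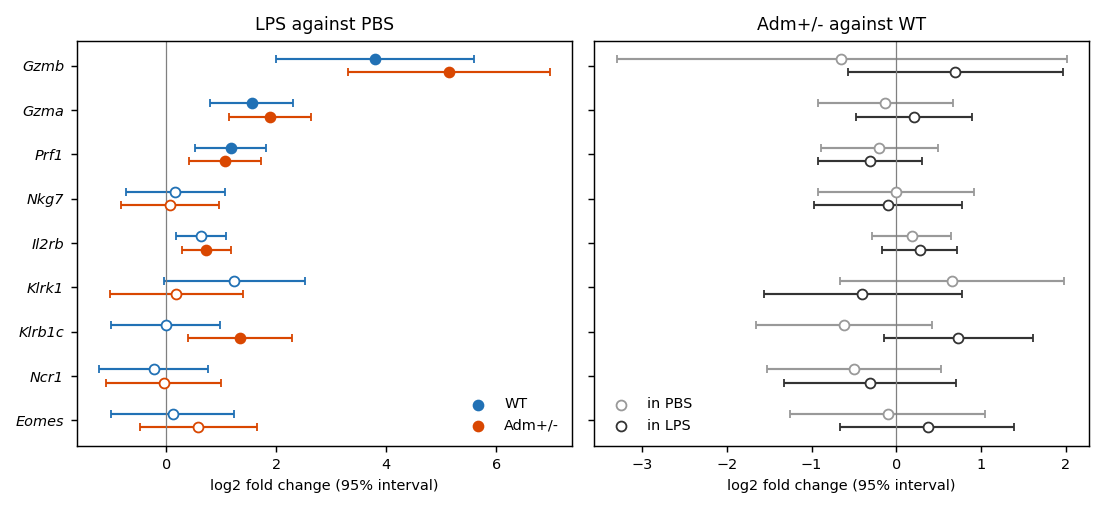
Log2 fold changes (horizontal axis, with 95% intervals) of the 9 genes tested, for LPS against PBS in WT and Adm+/- lungs (left) and for Adm+/- against WT in PBS and in LPS (right); filled points passed the test and open points did not. Gzmb, Gzma and Prf1 are filled for both genotypes on the left, Il2rb and Klrb1c for Adm+/- only, and every point on the right is open.

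Whether *Adm* haplodeficiency altered these genes was tested in 3 ways. In the difference of the LPS responses, *Adm*+/- minus WT, 0 of the 9 were called and 0 had an unadjusted p under 0.05 by edgeR, where 0.145% of all genes were called and 7.85% had an unadjusted p under 0.05. DESeq2 and limma-voom also called 0, and limma-voom gave *Klrb1c* alone an unadjusted p under 0.05. The largest differences in size were 1.35 for *Klrb1c*, 1.34 for *Gzmb* (95% interval -1.64 to 4.32, adjusted p = 0.967, edgeR) and -1.05 for *Klrk1* (interval -2.82 to 0.71, adjusted p = 0.898, edgeR). Without 1 library they ran from 1.08 to 1.79, from 0.61 to 3.16 and from -1.74 to -0.67, so their order was not stable. For *Gzma* the difference was 0.33 (interval -0.72 to 1.38), for *Prf1* -0.11 (interval -1.04 to 0.82) and for *Il2rb* 0.1 (interval -0.54 to 0.75). The narrowest of these, that of *Il2rb*, still allowed a response that differed by 0.75 on the log2 scale between the genotypes. For *Gzma* the difference was 0.01 without *Adm*+/- LPS replicate 2 and 0.6 without *Adm*+/- LPS replicate 1.

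Between *Adm*+/- and WT lungs given PBS, 0 of the 9 were called, with 0 at an unadjusted p under 0.05 by edgeR, DESeq2 or limma-voom, and 0% of all genes were called, with 2.17% at an unadjusted p under 0.05 by edgeR. Between *Adm*+/- and WT lungs given LPS, again 0 of the 9 were called and 0 had an unadjusted p under 0.05 by any of the 3 tools, where 2.05% of all genes were called and 14.3% had an unadjusted p under 0.05 by edgeR. All 10 genes overlapped between the genotypes under both treatments. Among all genes tested, 12.2% were higher and 12.4% lower without overlap in *Adm*+/- than in WT lungs given LPS. In lungs given PBS the shares were 2.47% and 2.51%. In LPS, the log2 differences ran from -0.4 for *Klrk1* to 0.73 for *Klrb1c*, with 0.69 for *Gzmb* (95% interval -0.57 to 1.96), 0.21 for *Gzma* (interval -0.48 to 0.89) and -0.31 for *Prf1* (interval -0.92 to 0.3). Without 1 library they ran from -0.98 to -0.14 for *Klrk1*, from 0.46 to 1.06 for *Klrb1c* and from 0.29 to 1.03 for *Gzmb*. In PBS, the log2 differences ran from -0.65 for *Gzmb* to 0.66 for *Klrk1*. That of *Klrk1* was 0.27 without *Adm*+/- PBS replicate 8 and 1.34 without WT PBS replicate 4.

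The *Adm*+/- LPS libraries were uneven. Replicate 2 was the highest of its group in every gene of the 10 except *Eomes*, and the 10 genes summed to 24 CPM there against 14.9 and 16.2 CPM in replicates 1 and 12. In WT LPS the sums were 17.2, 17.3 and 13.1 CPM. In PBS they were 6.52 to 8.69 CPM in WT and 6.64 to 8.72 CPM in *Adm*+/-. Without *Adm*+/- LPS replicate 2, edgeR called 2 of the 9 genes in *Adm*+/- (*Gzma* and *Gzmb*) in place of 5. Without *Adm*+/- PBS replicate 8 it also called 2, and without *Adm*+/- PBS replicate 7 it called 3. Leaving out both PBS libraries that stood apart gave 3 calls in WT and 5 in *Adm*+/-, as with all 12 libraries.

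To ask whether the granule genes and the NK receptor rose by the same factor, the log2 difference of 2 genes was taken within each library, on which the scaling of the library acts only through the prior count of 2 that was added before the logarithm. *Gzmb* minus *Gzma* was -3.7, -2.57 and -1.95 in WT PBS, -0.67, -0.59 and -1.76 in WT LPS, -3.08, -2.34 and -3.93 in *Adm*+/- PBS and 0.22, -0.48 and -0.63 in *Adm*+/- LPS. *Gzmb* thus lay below *Gzma* in 11 of 12 libraries, and the gap closed by 2.28 ± 0.41 (SE) with LPS, averaged over the genotypes. In an exact two-sided permutation of treatment within genotype (400 assignments), p was 0.005, the smallest that the design allows, and 0.01 after adjustment over the 6 pairs. *Gzmb* had 0 or 1 read in 3 of the 6 PBS libraries, so this size depends on the prior count, and with a prior count of 0.5 it was 3.16 (adjusted p = 0.01 by exact permutation).

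Against *Ncr1*, *Gzma* gained 1.68 ± 0.35 with LPS (SE, exact permutation p = 0.005, the smallest allowed, adjusted 0.01), *Gzmb* 3.96 ± 0.6 (p = 0.005, adjusted 0.01, exact permutation, and 4.89 with a prior count of 0.5) and *Prf1* 1.1 ± 0.31 (p = 0.01, adjusted 0.015, exact permutation). *Gzma* minus *Ncr1* ranged from 0.75 to 2.19 over the 6 PBS libraries and from 2.55 to 3.77 over the 6 LPS libraries, with no overlap. *Il2rb* gained 0.75 ± 0.27 over *Ncr1* (exact permutation p = 0.03, adjusted 0.036), a call that was lost in 4 of the 12 fits without 1 library (0.61 without WT PBS replicate 3, 0.66 without WT PBS replicate 4, 0.69 without WT LPS replicate 9 and 0.7 without WT LPS replicate 11). *Klrk1* against *Ncr1* changed by 0.83 ± 0.42, which did not pass (exact permutation p = 0.11, adjusted 0.11) and passed without *Adm*+/- PBS replicate 8 (1.12, adjusted p = 0.018 by exact permutation). None of the 6 pairs passed the test of a difference between the genotypes (adjusted p of 0.6 to 1 by exact permutation), with a difference of 1.09 ± 0.83 for *Gzmb* minus *Gzma*. Since *Ncr1* has few reads, its own counting error enters the value of every pair that includes it.

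**Figure D3:**
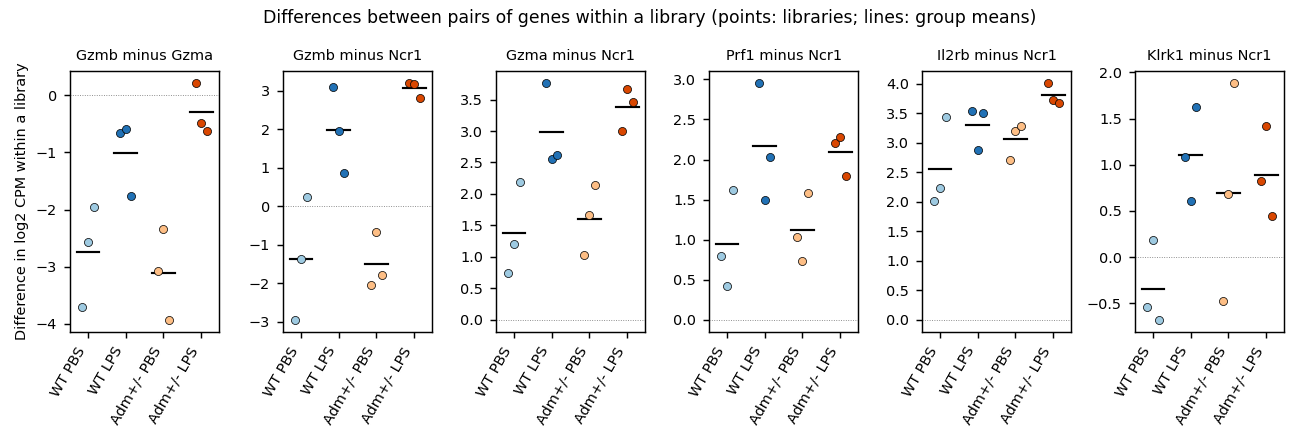
Log2 difference between the levels of 2 genes within each library (vertical axis, each panel with its own scale) for 6 pairs; points are libraries and lines group means. Gzmb minus Gzma lies between -3.93 and -1.95 in PBS and between -1.76 and 0.22 in LPS libraries.

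Levels of different genes were compared roughly, per kilobase of exon. The length counted every base in an exon of any annotated transcript, so many or long transcripts can lower a gene's value. It was 7183 bases from 6 transcripts for *Klrk1* and 1540 from 2 for *Ncr1*, and their means in WT PBS were 0.4 and 0.474 CPM. By this measure *Gzma* was the highest of the 10 in WT PBS at 1.31 ± 0.302 CPM per kb (SD, n = 3), followed by *Nkg7* at 0.922 ± 0.311 and *Il2rb* at 0.712 ± 0.124. These neighbors overlapped. *Prf1* at 0.363 ± 0.0265 lay below all *Il2rb* values and overlapped with *Ncr1* at 0.308 ± 0.131. *Klrb1c* (0.133), *Gzmb* (0.117), *Eomes* (0.0763), *Klrk1* (0.0557) and *Ifng* (0.0419) followed, each overlapping with its neighbor in that order, and *Klrb1c* lay below all *Ncr1* values. In *Adm*+/- LPS the order of levels was *Gzma* (4.4 CPM per kb), *Gzmb* (2.4), *Il2rb* (1.33), *Nkg7* (0.947), *Prf1* (0.667), *Klrb1c* (0.218), *Ncr1* (0.217), *Klrk1* (0.104), *Eomes* (0.104) and *Ifng* (0.0199). There, neighbors were apart in all libraries between *Gzmb* and *Il2rb*, between *Prf1* and *Klrb1c* and between *Eomes* and *Ifng*. In WT LPS the order of means began with *Gzma* (3.8), *Gzmb* (1.48) and *Il2rb* (1.1), but *Gzmb* ran from 0.499 to 2.08 and overlapped with *Il2rb*, *Nkg7* and *Prf1*, below all of whose values it lay in replicate 11. In *Adm*+/- PBS *Gzmb* (0.0593) lay between *Eomes* (0.0699) and *Ifng* (0.0537), overlapping with both. By its mean *Gzmb* thus went with LPS from the ninth place to the second in *Adm*+/-, while its second place in WT was not apart from the next genes.

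The label of the set was held against further NK markers. Of 8 NK cell markers, among them *Ncr1*, *Klrb1c* and *Eomes*, only 4 passed the filter on low counts, and the Ly49 receptor genes *Klra4* and *Klra8* were at 0 reads in all libraries of at least 1 group. *Klre1*, another untested receptor gene, had 3 reads in WT LPS (0 to 0.0832 CPM) and 23 in *Adm*+/- LPS (0.187 to 0.377 CPM), which did not overlap, beside 3 reads in WT PBS and 7 in *Adm*+/- PBS (0 to 0.199 CPM). The 8 summed to 1.65 to 1.94 CPM in WT PBS, 1.47 to 1.91 in WT LPS, 1.32 to 1.79 in *Adm*+/- PBS and 1.53 to 2.89 in *Adm*+/- LPS. In WT 0 of the 4 were called and 0 had an unadjusted p under 0.05 by edgeR, DESeq2 or limma-voom, and in *Adm*+/- edgeR called *Klrb1c* alone. NK transcripts were thus present at a low level in all 12 lungs. The 3 genes that rose in both genotypes are not on this marker list, and NK cells share them with cytotoxic T cells.

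Cytotoxic genes are also used by other lymphocytes, whose markers were read in the same way. Of 9 T cell markers tested, 0 were called in WT, with 1 at an unadjusted p under 0.05, by edgeR, DESeq2 and limma-voom alike, and 1, *Cd3d*, was called lower in *Adm*+/- (log2 fold change -0.97 ± 0.29 SE, adjusted p = 0.0271, edgeR). The T cell list summed to 22.4 to 27 CPM in WT PBS, 18.4 to 18.7 in WT LPS, 20.8 to 21.8 in *Adm*+/- PBS and 16.9 to 20.9 in *Adm*+/- LPS. In the gamma delta T cell list, *Cd163l1* rose in both genotypes (2.13 and 2.5 on the log2 scale), while the list sum ranged from 76.3 to 184 CPM over all libraries, mostly from *Sox13*, which is also made outside lymphocytes. *Sox13* itself went the other way, with log2 fold changes of -0.57 ± 0.24 in WT (SE, adjusted p = 0.104, edgeR) and -0.59 ± 0.24 in *Adm*+/- (adjusted p = 0.0817, edgeR), not called in either but with an unadjusted p under 0.05 in both. The receptor constant genes of that list are not annotated as protein-coding and were outside the genes tested. *Tcrg-C1* was at 0.0618 to 0.291 CPM in WT PBS and 0.291 to 1.08 in WT LPS, and at 0.0795 to 0.203 in *Adm*+/- PBS and 0.636 to 0.998 in *Adm*+/- LPS. *Trdc*, the delta chain, averaged 0.893 ± 0.353 CPM in WT PBS and 1.49 ± 0.721 in WT LPS, and 0.567 ± 0.429 in *Adm*+/- PBS and 1.5 ± 0.167 in *Adm*+/- LPS (SD, n = 3). Among all annotated genes, edgeR called *Tcrg-C1* higher in *Adm*+/- (2.52 ± 0.57 SE, adjusted p = 0.00716) and not in WT (1.67 ± 0.55, adjusted p = 0.0616). *Trdc* was not called in that fit, at 0.68 in WT (adjusted p = 0.382, edgeR) and 1.33 in *Adm*+/- (adjusted p = 0.0779, edgeR), nor was *Tcrg-C4*, and *Tcrg-C2*, with means of 0.122 and 0.401 CPM in WT and 0.0798 and 0.337 in *Adm*+/- in PBS and LPS, was not tested. Reads of the near-identical *Tcrg-C* genes may be split uncertainly between them. In the same fit *Trac*, the alpha chain of the T cell receptor, was called lower in WT (-1.31, adjusted p = 0.0288, edgeR) and not in *Adm*+/- (-0.19, adjusted p = 0.732, edgeR). The genes of the gamma delta list thus did not all go one way, as the means of the receptor constant genes and *Cd163l1* were higher and that of *Sox13* lower in LPS than in PBS lungs, and their part in the rise of the granule genes was not tested. Of 7 innate lymphoid markers tested, *Il7r* rose in both genotypes (1.36 and 1.24), and in *Adm*+/- *Areg* (0.8) and *Il1rl1* (0.75) were also called higher and *Gata3* lower (-1.43, adjusted p = 0.00254, edgeR). Of 6 B cell markers edgeR called 0 in either genotype, with 1 in WT and 2 in *Adm*+/- at an unadjusted p under 0.05, while DESeq2 called *Cd22* higher in WT (0.56) and *Cd79b* lower in *Adm*+/- (-0.63). Of 5 mast cell and basophil markers tested, all 3 tools called 0 in either genotype, with 0 in WT and 1 in *Adm*+/- at an unadjusted p under 0.05 by edgeR. Of 4 thymocyte markers tested, *Cd1d1* fell in both genotypes (by 0.77 and by 1.09 on the log2 scale), *Arpp21* was called higher in WT (3.23), and *Themis* was called lower in *Adm*+/- (-1.36). For *Arpp21* the difference between the genotypes was -3.1 by DESeq2 (adjusted p = 0.00144). The WT LPS lungs also held the skeletal muscle genes, and whether thymocytes carried the *Arpp21* rise was not tested.

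Myeloid markers moved with the granule genes. All 6 neutrophil markers tested were called higher in both genotypes, and the list summed to 25.6 to 119 CPM in WT PBS, 1030 to 1840 in WT LPS, 25.3 to 40.2 in *Adm*+/- PBS and 1050 to 1290 in *Adm*+/- LPS. Of 7 monocyte and macrophage markers, 6 were called higher in WT and 5 in *Adm*+/-. Of 4 markers of all leukocytes, 3 were called higher in both, with *Ptprc*, which encodes CD45, at 1.44 ± 0.22 in WT and 1.22 ± 0.22 in *Adm*+/- (SE, log2 fold change). The part of these cells in the rise of *Gzmb*, *Gzma* and *Prf1* was not tested. All 8 skeletal muscle and all 5 squamous epithelium markers tested were called higher in WT by edgeR, and limma-voom called 0 of the 5. In WT LPS the library with the lowest muscle sum, replicate 11 at 577 CPM, also had the lowest *Gzma*, *Gzmb* and *Prf1*. In *Adm*+/- LPS, where the muscle sum was 14.4 to 32.8 CPM, the 3 genes were called as well. The part of the muscle and squamous genes in the WT values was not tested.

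**Figure D4:**
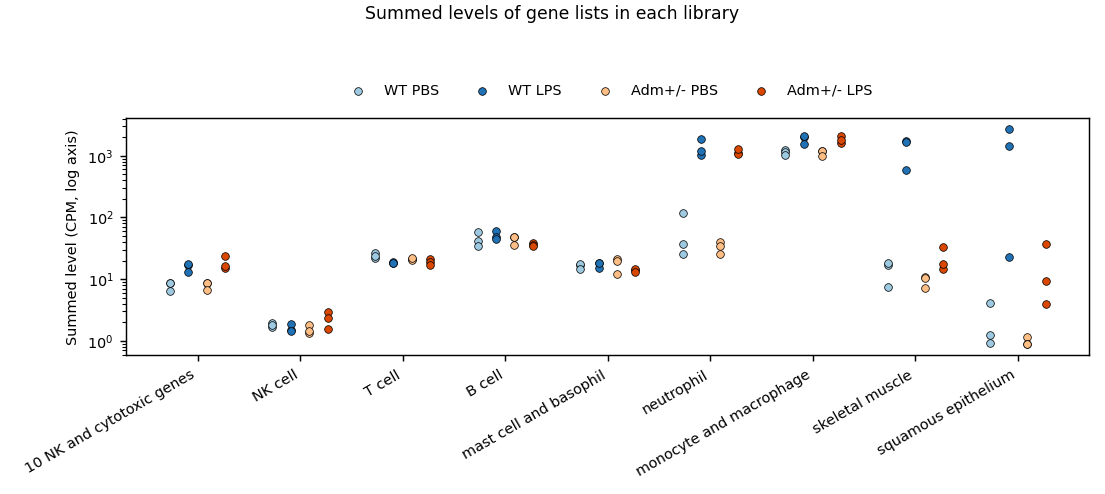
Summed CPM (vertical log axis) of the 10 NK and cytotoxic genes and of 8 cell type marker lists in each of the 12 libraries, colored by group. The NK cell list stays between 1.32 and 2.89 CPM in all libraries, the 10 genes lie between 6.52 and 8.72 CPM in PBS and between 13.1 and 24 CPM in LPS, and the neutrophil list exceeds 1000 CPM in each LPS library.

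The genes around the 10 in NK cell biology were read next, from lists of receptors, signaling, granules, factors, cytokines and migration. Counts below are of genes called higher and lower with LPS, to be read beside 10.5% higher and 7.09% lower over all genes in WT and 12.8% higher and 12.2% lower in *Adm*+/-. In the test of the difference between genotypes, edgeR called 0 of the 104 genes of these lists, with 11 at an unadjusted p under 0.05, limma-voom called 0, and DESeq2 called *H60c* (-2.23) and *Prdm1* (-0.8), both lower. Of 32 further NK receptor genes in the count table, 16 passed the filter, and 4 were called higher in WT and 6 in *Adm*+/-, with 0 lower. They were led by *Cd244*, the receptor 2B4, at 2.79 ± 0.29 in WT and 2.8 ± 0.29 in *Adm*+/- (SE, log2 fold change), by *Fcgr3*, an Fc receptor also made by myeloid cells, at 2.22 and 2.19, and by *Pilrb1* at 1.45 and 1.04. *Klra17* was the other call by edgeR in WT (2.07), which was lost in most fits without 1 library. Limma-voom called it higher in *Adm*+/- as well (2.26, adjusted p = 0.0259). *Itga2*, the integrin chain CD49b, was called in *Adm*+/- (0.7). *Klrd1*, the CD94 chain that pairs with NKG2 receptors, was at -0.05 in WT (adjusted p = 0.943, edgeR) and 0.36 in *Adm*+/- (adjusted p = 0.488, edgeR). Of the 16 receptor genes tested, 12 in WT and 10 in *Adm*+/- were not called. Which cells carried the rises of the others was not tested.

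Of 13 adaptor and proximal signaling genes tested, 6 were called higher in both genotypes, and 1 was called lower in *Adm*+/-. *Tyrobp*, the adaptor DAP12 of NK and myeloid receptors, rose by 1.49 in WT and 1.23 in *Adm*+/- on the log2 scale, *Lcp2* (SLP-76) by 2.1 and 2.24, *Vav1* by 1.87 and 1.96 and *Syk* by 1.14 and 1.46. These 4 are used by myeloid cells as well. Of 13 further genes of granules and death ligands tested, 3 were called higher in WT and 5 in *Adm*+/-, with 0 and 1 lower. *Stx11*, which serves the fusion of granules, rose by 1.08 and 1.72, *Srgn*, the granule proteoglycan, by 0.93 and 1.21, and *Ctsc*, the protease that activates granzymes, by 0.85 and 1. *Cst7*, an inhibitor of cathepsins, was called in *Adm*+/- (1.51). The granzyme genes *Gzmd*, *Gzmf*, *Gzmg* and *Gzmn* had 0 reads in all 12 libraries, and *Gzmm*, which is made by NK cells without activation, was at -0.26 in WT (adjusted p = 0.592, edgeR) and 0.04 in *Adm*+/- (adjusted p = 0.936, edgeR).

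Of 12 transcription factor genes tested, 1 was called higher in WT, *Tox2* (1.33), and 3 higher and 2 lower in *Adm*+/-: *Tox2* (1.84), *Nfil3* (1.3) and *Tox* (0.9) higher, *Prdm1* (-0.75) and *Gata3* (-1.43) lower. *Tox2*, *Nfil3* and *Tox* are known for their part in NK cell development. *Tbx21*, which encodes the T-box factor T-bet, was at 0.53 in WT (adjusted p = 0.413, edgeR) and -0.78 in *Adm*+/- (adjusted p = 0.211, edgeR).

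Of 10 further genes of the interleukin 2 and 15 axis tested, 3 were called higher and 1 lower in WT, and 6 higher and 0 lower in *Adm*+/-. *Jak1*, the kinase bound by the beta chain, rose by 0.51 in WT and 0.98 in *Adm*+/-, *Il15ra*, which presents interleukin 15, by 0.97 and 0.99, and *Il2rg*, the common gamma chain, by 0.82 and 1.32. *Jak3* and *Stat5a* were called in *Adm*+/- (1.45 and 1.05), and *Socs1*, a feedback inhibitor, was called lower in WT (-0.97). The ligand gene *Il15* was at 0.25 in WT (adjusted p = 0.51, edgeR) and 0.39 in *Adm*+/- (adjusted p = 0.281, edgeR). Of 12 inducers of interferon gamma and their receptors tested, 6 were called higher in WT and 7 in *Adm*+/-, with 0 lower. *Il18rap*, a chain of the interleukin 18 receptor, rose by 2.71 and 2.94, and *Ebi3* and *Il27*, which together form interleukin 27, by 2.59 and 3.18 and by 2.18 and 2.02. *Ifng* itself stayed at 0 to 5 reads per library. The summed levels of the lists, which follow their most abundant genes and were not tested, overlapped between the genotypes given LPS for these inducers (136 to 162 CPM in WT and 148 to 163 in *Adm*+/-), the adaptors, the granule genes and the NKG2D ligands. They were higher in all *Adm*+/- LPS than in all WT LPS libraries for the NK receptors (249 to 266 against 168 to 225 CPM), the transcription factors (1040 to 1150 against 996 to 1010), the interleukin 2 and 15 axis (849 to 877 against 545 to 742), the interferon gamma receptor and induced genes (788 to 1380 against 386 to 657) and the migration genes (405 to 496 against 280 to 384). Single genes made up much of 3 of these sums. *Itga2* of the NK receptors was at 146 to 170 CPM in *Adm*+/- LPS against 73.9 to 109 in WT LPS. *Jak1* was at 447 to 489 against 259 to 387, and *S1pr1* of the migration genes at 300 to 382 against 137 to 266. Among all single genes tested, 12.2% were higher without overlap in this comparison.

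Of 11 interferon gamma receptor and induced genes tested, 3 were called higher and 1 lower in WT and 4 higher and 1 lower in *Adm*+/-. The receptor genes *Ifngr1* and *Ifngr2* rose by 0.84 and 1.02 and by 0.71 and 1.13, and *Cxcl10*, a chemokine that other interferons also induce, by 3.69 and 6.03. *Cxcl9* was called higher in *Adm*+/- (3.73), and *Ciita* lower (-0.97). Single libraries weighed on these values. *Cxcl10* was at 13.7, 102 and 16 CPM in *Adm*+/- LPS replicates 1, 2 and 12 and at 1.71 to 18.5 in WT LPS, and without replicate 2 its rise in *Adm*+/- was 4.48 (adjusted p = 0.00427, edgeR). In WT its call was lost without any of 4 libraries, with 2.8 (adjusted p = 0.0893, edgeR) without WT LPS replicate 10. *Cxcl9* was at 0.598, 6.66 and 1.32 CPM in *Adm*+/- LPS, and without replicate 2 it was not called (2.18, adjusted p = 0.0827, edgeR). *Adm*+/- PBS replicate 7, which held the most *Ifng* reads (5), stood apart on this list without LPS, with a sum of 758 CPM beside 296 and 308 in the other *Adm*+/- PBS libraries. Without it 9 of the 11 genes were called higher in *Adm*+/-. Of 5 ligand genes of NKG2D tested, *Ulbp1* was called lower in WT (-0.9, adjusted p = 0.0484, edgeR) and *H60c* lower in *Adm*+/- (-1.54, adjusted p = 0.00982, edgeR). The *Ulbp1* call held in 4 of the 12 fits without 1 library. Most values of the other ligands were above 0 and not called by edgeR, and the list median was 0.68 in WT and 0.29 in *Adm*+/-. *H60b* was at 0.8 and 0.74 (adjusted p = 0.0661 and 0.0711, edgeR), which DESeq2 called higher in both genotypes (adjusted p = 0.0393 and 0.0464), and *Raet1e* at 0.78 and 0.29 (adjusted p = 0.0748 and 0.48, edgeR). *H60c* was also lower in *Adm*+/- than in WT lungs given LPS (-1.93, adjusted p = 0.0235, edgeR). It was the 1 call by edgeR in that comparison among the 104 genes of these lists, beside 2.05% called of all genes, and 30 of the 104 had an unadjusted p under 0.05, beside 14.3% of all genes. DESeq2 called 7 of the 104 there, among them *Nfil3* (0.83) and *Itga2* (0.73) higher and *Gata3* (-0.86), *Prdm1* (-0.54), *S1pr5* (-1.21) and *Cx3cr1* (-2.18) lower in *Adm*+/-. The *Cx3cr1* value rests on WT LPS replicate 11, at 37.7 CPM beside 5.86 and 3.49 in the other WT LPS libraries and 3.18 to 3.92 in *Adm*+/- LPS, and without it was -0.44 (adjusted p = 0.651, edgeR). Without that library the LPS response of *Cx3cr1* in WT was -1.65, in place of 0.08.

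Of 11 genes of NK cell migration tested, 7 were called higher and 0 lower in WT, and 5 higher and 2 lower in *Adm*+/-. The chemokine genes *Ccl4*, *Ccl3* and *Ccl5*, which NK cells and many other leukocytes make, rose by 4.31 and 6.39, 3.73 and 5.77, and 2.79 and 3.61. *S1pr1*, which is also an endothelial gene, rose by 0.8 and 1.53, but most fits without 1 library did not call it in WT. *Cx3cr1*, a receptor of mature NK cells and monocytes, was called lower in *Adm*+/- (-2.15, adjusted p = 0.0314, edgeR). The study took NK markers from Tabula Muris, a mouse single-cell atlas, and picked those with the most preferential response in these same samples. It named *Ppm1j* and *Tnfrsf9* among them, so their direction is not independent evidence. Its marker enrichment tests and human data on NK cells were not examined here. *Tnfrsf9*, the costimulatory receptor 4-1BB, was called higher in both genotypes (4.22 and 6.82), and *Ppm1j* in *Adm*+/- (1.02). Their summed level was 3.74 to 19.8 CPM in WT LPS and 42.3 to 47.1 in *Adm*+/- LPS. Between *Adm*+/- and WT lungs given LPS, *Tnfrsf9* was at 1.97 ± 0.58 (SE, adjusted p = 0.112, edgeR) and *Ppm1j* at 0.79 ± 0.25 (adjusted p = 0.148, edgeR), both with an unadjusted p under 0.05. Limma-voom called *Tnfrsf9* higher there (2.52, adjusted p = 0.0482), and DESeq2 called neither. The differences of the LPS responses were 2.6 ± 1.15 for *Tnfrsf9* and 0.69 ± 0.37 for *Ppm1j* (adjusted p = 0.611 and 0.734, edgeR). *Tcrg-C1*, *Tcrg-C2*, *Tcrg-C4*, *Trdc*, *Trac*, *S1pr5*, *Klre1*, *H60b*, *Raet1e*, *Klra4*, *Klra8*, *Klra17*, *Gzmd*, *Gzmf*, *Gzmg*, *Gzmn*, *Gzmm*, *Nfil3*, *Tox*, *Tbx21*, *Il2rg*, *Il15*, *Cxcl9*, *Ciita*, *Il1rl1*, *Cd22* and *Cd79b* were named after their values had been seen.

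The genes whose pattern over the 12 libraries lay nearest to each of the 9 were found by the root mean square difference of log2 CPM after each gene was centered on its mean. Over these libraries the nearest to *Gzmb* were *Saa1* (0.516), *Camp* (0.613) and *Cd14* (0.631), and to *Gzma* they were *Ptafr* (0.248), *Eva1c* (0.296) and *Fut4* (0.298). The nearest to *Prf1* were *Proser2* (0.181), *Trim9* (0.212) and *Tuba4a* (0.229), and to *Il2rb* they were *Gsdmd* (0.131), *Tnfrsf14* (0.135) and *H2-T22* (0.201). *Klrb1c* was nearest to *Kcnk5* (0.254) and *Ncr1* to *Pspn* (0.249). No gene of the set had another as its nearest: for *Gzma* the first was *Prf1* at rank 313, for *Gzmb* it was *Gzma* at rank 376, and for *Ncr1* it was *Nkg7* at rank 4616. Low counts widen these distances, and the libraries share depth and treatment, so the neighbors are given as a description.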

How the data were processed

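RNA from whole lungs of 12 mice was made into directional libraries after depletion of ribosomal RNA. The authors trimmed the reads with Trim Galore, aligned them to mm10 with HISAT2 and deposited raw counts per gene from featureCounts; the strand option and the annotation release used in counting are not given in the sources used here. Low-count protein-coding genes were removed with filterByExpr, given the 4 groups, and the rest were fitted with edgeR 4.0.16 in R 4.3.3 by the quasi-likelihood test, with TMM scaling and 1 coefficient per group over all 12 libraries, which leaves 8 residual degrees of freedom. Genes were called at a Benjamini-Hochberg adjusted p below 0.05 over all genes tested and an absolute log2 fold change above 0.5. CPM are counts per 1000000 after TMM scaling, and log2 CPM carry a prior count of 2. Errors of fold changes are standard errors from the fit, intervals are 95% intervals, and errors of levels are SD over 3 libraries. A count of 0 was read as allowing up to 3 reads, and such limits, like the intervals of summed read ratios, cover counting error only. Total counts were 22382535 to 38062873 per library, and low genes carry both counting error and the spread between mice.

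Ratios within a library were compared by exact two-sided permutation of treatment within genotype, and their differences between genotypes by permutation of genotype within treatment. Alternatives were RLE size factors, DESeq2 1.42.0, limma-voom (limma 3.58.1), no filter, a filter at a mean of 1 CPM, all annotated genes, a fit of only the 6 libraries compared, and leaving out each library or both PBS libraries that stood apart. The scripts were tested on simulated data. Each library was 1 mouse of its group by label, no 2 libraries of a group held identical counts, and p-values measure the spread between these mice only. Other genes are named as the 3 of each list with the highest mean CPM and the 3 with the smallest p among those called in each genotype, and the 3 nearest in pattern to each of the 9; those named otherwise are listed as such. The 10 genes, the gene lists and the alternatives were chosen with earlier results of these data known. Gene positions came from Gencode M21, where 52403 of the 52550 identifiers (99.7%) matched, and promoters from RefSeq on GRCm38.p6, with an entry for 9 of the 10 genes and none for *Il2rb*.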

Additional observations from a re-analysis of the deposited data

How the results depend on the processing

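*Gzma* and *Gzmb* kept their direction and their call in both genotypes under every alternative run. *Prf1* was lost in WT in the fit of the 6 libraries compared (1.17, adjusted p = 0.0572 by edgeR), and *Klrb1c* in *Adm*+/- was lost with DESeq2 and without the filter, and was not tested under the filter at a mean of 1 CPM; the cause was not tested. Over all genes, the fit of the 6 libraries called 1152 in WT in place of 2791. In the difference between genotypes DESeq2 called 168 genes and limma-voom 1 in place of 23, and between genotypes given LPS DESeq2 called 803 in place of 325. Without 1 library (or both PBS libraries that stood apart), genes called ran from 1443 (without WT LPS replicate 9) to 3074 in WT, from 5 to 65 in the difference and from 81 to 573 between genotypes given LPS, with 548 without both PBS libraries. The genes of the 9 called ran from 2 to 4 in WT and from 2 to 5 in *Adm*+/-, and the *Il2rb* to *Ncr1* ratio from 0.61 to 0.97 and that of *Klrk1* to *Ncr1* from 0.45 to 1.12. The difference between genotypes in these ratios ran from -0.54 to 0.56 for *Gzma* to *Ncr1* and from -0.63 to 0.26 for *Il2rb* to *Ncr1*.

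Log2 values of genes that were not called changed sign in places; the cause was not tested. Without 1 library (or both PBS libraries), the LPS value in WT ran from -0.62 to 0.01 for *Ncr1*, -0.35 to 0.16 for *Klrb1c*, -0.1 to 0.39 for *Nkg7* and -0.22 to 0.5 for *Eomes*. In *Adm*+/- it ran from -0.33 to 0.2 for *Ncr1* (0 with limma-voom), -0.39 to 0.58 for *Klrk1* and -0.26 to 0.48 for *Nkg7*. The difference between genotypes ran from -0.1 to 0.7 for *Ncr1*, -0.05 to 0.26 for *Il2rb*, -0.39 to 0.13 for *Prf1* and -0.41 to 0.32 for *Nkg7*. Between genotypes given PBS it ran from -0.32 to 0.02 for *Gzma*, -2.46 to 0.29 for *Gzmb*, -0.42 to 0.29 for *Nkg7* (-0.06 with limma-voom and -0.02 with all annotated genes) and -0.44 to 0.29 for *Eomes*, and between genotypes given LPS from -0.55 to 0.07 for *Ncr1*, -0.13 to 0.47 for *Gzma* and -0.41 to 0.05 for *Nkg7*. RLE size factors changed no call and no sign among the 9 genes. Counts of list genes moved too, for example from 0 to 5 called higher for the interleukin 2 and 15 axis in WT over the 21 settings, and from 3 to 9 for the interferon gamma receptor and induced genes in *Adm*+/-. Of the pathway genes that edgeR called, 24 of 36 in WT and 38 of 52 in *Adm*+/- were called in every fit without 1 library, *S1pr1* in WT in 3 of the 12 fits, *Klra17* in WT in 5, *Cx3cr1* in *Adm*+/- in 6, and *H60c* between genotypes given LPS in 7. No pairing or blocking by litter was possible because the labels do not give the litter. *Ifng*, *Ncr1*, *Klrb1c* and *Eomes* were counted with few reads, which limits what can be seen beside the spread between mice.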
